A study of Mus musculus with 6 samples.

Results

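The core endothelial identity genes are 10 genes whose transcripts mark the cells that line blood vessels: Pecam1, Cdh5, Cldn5, Tek, Tie1, Kdr, Flt1, Emcn, Erg and Egfl7. They were taken by gene symbol from a table of 49568 symbols, of which 19199 had enough counts to be tested, and all 10 members were among those tested. The table came from whole lungs of 3 TNF-Tg and 3 WT mice, all female, 4 months old and on a C57BL/6 background. TNF-Tg mice carry and overexpress a human TNF transgene and serve as a model of inflammatory arthritis with lung disease, and WT mice are their littermates without it. The promoter that drives the transgene is not given in the sources used here, and whole lung holds every cell type of the organ, so no value below belongs to endothelial cells alone. Poly(A) RNA of each lung was sequenced as its own library, and the comparison asks how transcripts in the lung differ between mice with and without the transgene.

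Endothelial cells hold together through VE-cadherin (Cdh5) and PECAM-1 at adherens and cell-cell contacts and through claudin-5 at tight junctions. Their growth and survival signals enter through receptor tyrosine kinases for vascular endothelial growth factors (Kdr, Flt1) and for angiopoietins (Tek, with its partner Tie1). The ETS factor Erg keeps these genes switched on in adult vessels, and in the lung the endothelium forms the capillary side of the gas exchange surface.

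Of the 10 genes, 9 were lower and 1 was higher in TNF-Tg lungs at an adjusted p under 0.05 (quasi-likelihood test of edgeR, Benjamini-Hochberg adjusted across every gene tested). Among all genes tested, 23.4% were called lower and 24.0% were called higher. The gene that rose was Emcn, which encodes the sialomucin endomucin of capillary and venous endothelium. The other 9 fell, from Tek, whose level in TNF-Tg lungs was 26.0% of that in WT lungs, to Pecam1, at 67.9%. The median log2 fold change of the 10 genes was -1.16, and that of all genes tested was 0.03. In all 10 genes the lungs of the 2 genotypes did not overlap: every TNF-Tg lung lay below every WT lung for 9 genes, against 28.2% of all genes tested, and above for Emcn, against 30.5%. In a whole-tissue library, fewer cells of a type, less RNA per cell and more RNA from other cells cannot be told apart.

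**Figure D1:**
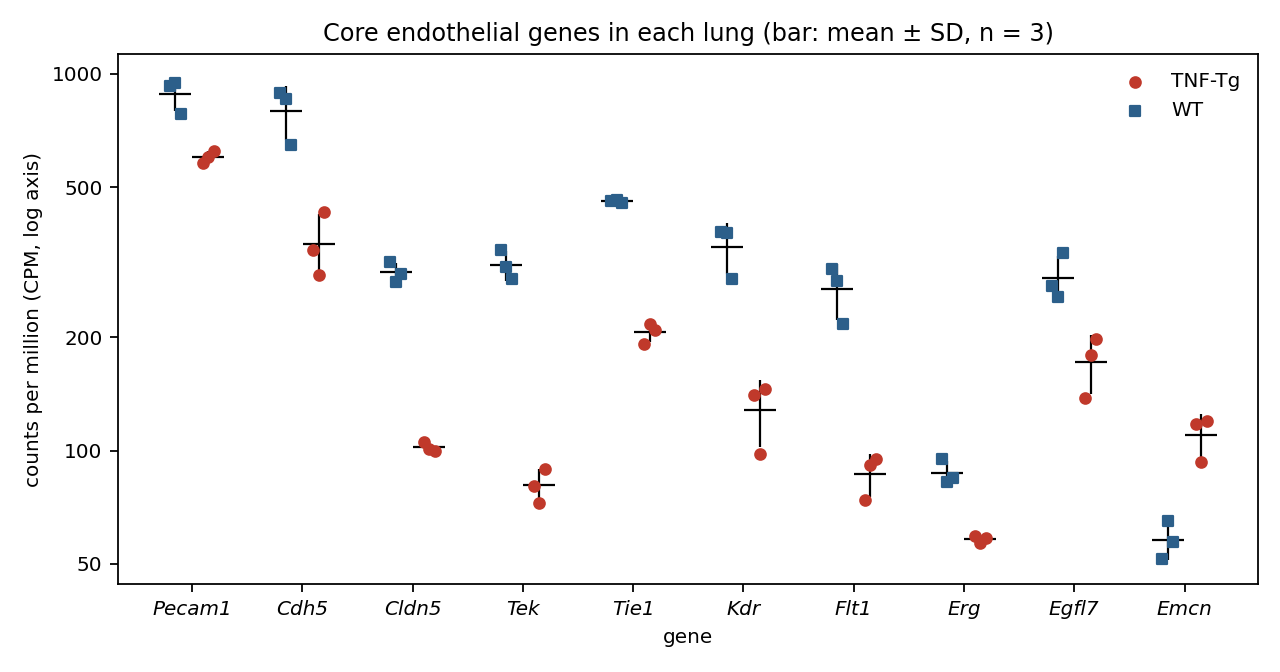
Level of each core endothelial gene in every lung, in CPM on a log axis, with red circles for the 3 TNF-Tg lungs, blue squares for the 3 WT lungs and black bars for the mean ± SD of each genotype. The red points lie below the blue ones for 9 genes and above them for Emcn.

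The total counts were between 25396923 and 32529408 per lung, and the TNF-Tg totals all lay under the WT totals. Levels are given as CPM, counts scaled to a common library size by each library's total and its TMM factor, and these factors were between 0.904 and 1.10. The lowest count of any core gene in any lung was 1363, for Erg, and the highest was 29827, for Pecam1. In the TNF-Tg lung of replicate 1, 5.22% of the counts lay on Gm42418, against at most 0.274% in the other lungs. The WT lung of replicate 1 held 45433 counts of the squamous keratin Krt13, against at most 8 in the others. Both genes were singled out after their values were seen, Gm42418 outside the naming rule. Of the 8 markers of muscle, heart and squamous epithelium, 5 could be tested and 4 of those were lower, where 23.4% of all genes tested were. The sum of these 5, which leaves out Krt4, Krt13 and Myh2, was 188 to 216 CPM in TNF-Tg lungs, 1993 CPM in the WT lung of replicate 1 and 729 and 603 CPM in the other WT lungs. Without both of these lungs, 8 of the 10 genes were still called lower and 1 higher, and the call of Pecam1 was lost. The human transgene has no row of its own in the table, and mouse Tnf had 106 to 405 counts in TNF-Tg lungs and 14 to 35 in WT lungs.

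The junction genes fell by different amounts. Pecam1 (ENSMUSG00000020717.19, chromosome 11 of mm10, 106654217 to 106750628, minus strand) encodes an adhesion molecule of endothelial contacts that platelets and leukocytes also carry. It stood at 579, 600.2 and 622 CPM in the TNF-Tg lungs and at 926, 946 and 783 CPM in the WT lungs. The lowest WT lung was above the highest TNF-Tg lung, and the mean fell from 885 ± 88.6 CPM (SD, n = 3) to 600.5 ± 21.7 CPM (SD, n = 3). Its log2 fold change of -0.56 ± 0.12 (standard error, SE; adjusted p = 0.00713) was the smallest of the 9 falls. Without the lungs numbered 1 of both genotypes it was -0.54, with an adjusted p of 0.0817 by edgeR.

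Cdh5 (ENSMUSG00000031871.9, chromosome 8, 104101625 to 104144511, plus strand) encodes VE-cadherin, the adherens junction cadherin of endothelium. Its levels were 340.1, 292 and 429.8 CPM in TNF-Tg lungs and 887, 855 and 647 CPM in WT lungs. The TNF-Tg lung of replicate 3 was the highest of its genotype and the WT lung of replicate 3 the lowest of its own, yet the 2 did not meet. The log2 fold change was -1.17 ± 0.19 (SE, adjusted p = 0.00135), a level 44.4% of that in WT lungs.

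Cldn5 (ENSMUSG00000041378.2, chromosome 16, 18776847 to 18778262, plus strand) encodes the claudin of endothelial tight junctions. It was at 106, 101 and 99.9 CPM in TNF-Tg lungs, a tight group, and at 316, 281 and 294 CPM in WT lungs. The gap between the genotypes was many times the SD of either group, 3.12 CPM in TNF-Tg and 17.8 CPM in WT. Its log2 fold change was -1.54 ± 0.10 (SE, adjusted p = 1.74e-05), and the 95% interval of -1.77 to -1.31 lay apart from that of Pecam1, -0.85 to -0.27.

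The receptors for angiopoietins and vascular endothelial growth factors included the 2 largest falls, those of Tek and Flt1. Tek (ENSMUSG00000006386.15, chromosome 4, 94739289 to 94874976, plus strand) encodes TIE2, the receptor that angiopoietins bind. It was at 80.5, 72.7 and 89.5 CPM in TNF-Tg lungs and at 341, 306 and 285 CPM in WT lungs. The genotypes were far apart in every lung, and Tek had the lowest log2 fold change of the 10 genes, -1.94 ± 0.12 (SE, adjusted p = 1.69e-05). Of all genes tested, 3.46% had a lower log2 fold change.

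Tie1 (ENSMUSG00000033191.14, chromosome 4, 118471191 to 118490061, minus strand) encodes the related receptor that pairs with TIE2 and binds no angiopoietin on its own. Its levels were 192, 216 and 209 CPM in TNF-Tg lungs and 461, 461 and 455 CPM in WT lungs, where the SD was only 3.36 CPM. The log2 fold change was -1.16 ± 0.10 (SE, adjusted p = 7.23e-05). Its 95% interval, -1.39 to -0.92, did not meet that of Tek, -2.23 to -1.66, so the pair of related receptors fell unequally.

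Kdr (ENSMUSG00000062960.10, chromosome 5, 75932827 to 75978458, minus strand) encodes VEGFR2, the main signalling receptor for VEGF-A in endothelium. It was at 141, 98.1 and 145 CPM in TNF-Tg lungs and at 380.2, 379 and 285 CPM in WT lungs. The spread was wide in both genotypes, but the lowest WT lung was well above the highest TNF-Tg lung. Its log2 fold change was -1.44 ± 0.18 (SE, adjusted p = 0.000471).

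Flt1 (ENSMUSG00000029648.13, chromosome 5, 147561604 to 147726011, minus strand) encodes VEGFR1, which binds VEGF-A tightly and in its soluble form acts as a decoy. Membrane and soluble transcripts are not told apart in counts per gene. The levels were 73.8, 91.3 and 94.7 CPM in TNF-Tg lungs against 304, 282 and 217 CPM in WT lungs, and the genotypes were far apart. The log2 fold change of -1.63 ± 0.16 (SE, adjusted p = 0.000117) was the lowest after that of Tek, and its interval of -1.99 to -1.26 overlapped that of Kdr, -1.87 to -1.02.

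The remaining genes that fell are a transcription factor and a secreted protein. Erg (ENSMUSG00000040732.20, chromosome 16, 95359169 to 95586593, minus strand) encodes the ETS factor of endothelial identity, which megakaryocytes also use. It had 59.5, 56.8 and 58.5 CPM in TNF-Tg lungs and 94.7, 82.6 and 84.4 CPM in WT lungs. The TNF-Tg lungs lay close together and under all WT lungs, with a log2 fold change of -0.58 ± 0.09 (SE, adjusted p = 0.00122). Egfl7 (ENSMUSG00000026921.18, chromosome 2, 26580014 to 26593120, plus strand) encodes a matrix protein that endothelial cells secrete around growing vessels, and its locus also holds miR-126. It was at 138, 179 and 198 CPM in TNF-Tg lungs and at 274, 255 and 334 CPM in WT lungs, with every WT lung above every TNF-Tg lung. The log2 fold change was -0.74 ± 0.16 (SE, adjusted p = 0.0066). The 2 miR-126 rows of the table, Mir126a and Mir126b, had 0 counts in every lung, in libraries made for poly(A) RNA. They also share 73 and 58 exon bases with Egfl7, and the cause of the 0 counts was not tested.

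Emcn (ENSMUSG00000054690.17, chromosome 3, 137341067 to 137432185, plus strand) moved the other way. It was at 118, 93.5 and 119 CPM in TNF-Tg lungs and at 51.5, 64.8 and 57.1 CPM in WT lungs. The lowest TNF-Tg lung was above the highest WT lung, and the mean rose from 57.8 ± 6.67 CPM (SD, n = 3) to 110.2 ± 14.5 CPM (SD, n = 3). The log2 fold change was 0.93 ± 0.13 (SE, adjusted p = 0.000778), and with each of 16 alternative settings it stayed between 0.77 and 1.04. Of the reads on the 10 core genes, Emcn took 1.28% to 1.66% in WT lungs and 5.19% to 6.44% in TNF-Tg lungs.

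**Figure D2:**
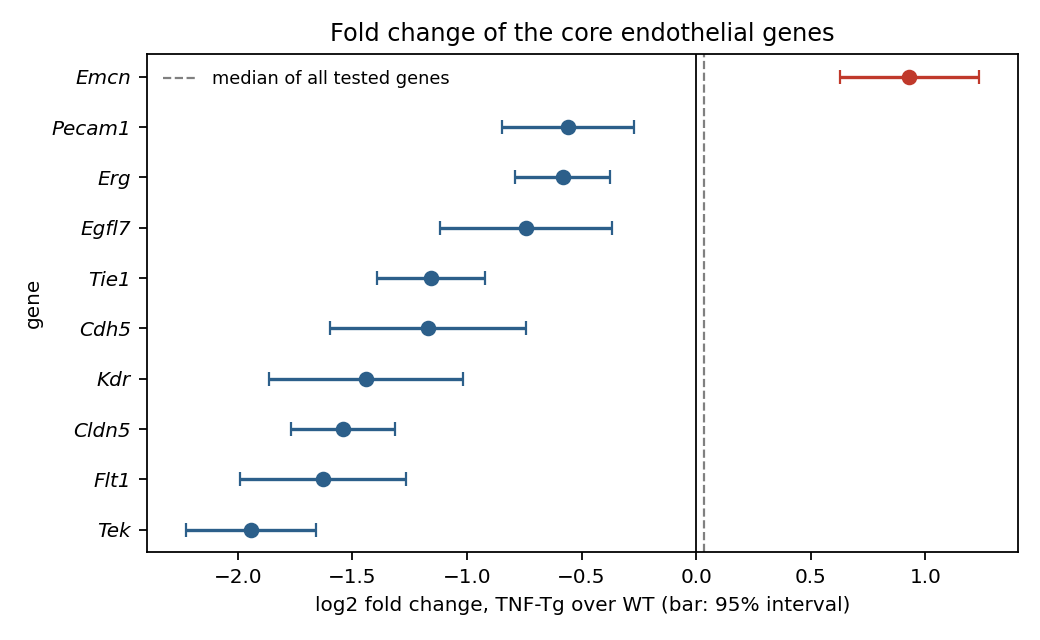
Log2 fold change (TNF-Tg over WT) of each core endothelial gene on the horizontal axis, with a bar for its 95% interval, and a dashed line at the median of all genes tested, 0.03. The intervals of 9 genes lie wholly below 0, from Tek at -1.94 to Pecam1 at -0.56, and that of Emcn lies wholly above, at 0.93.

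Levels can be set against each other only per length of transcript. As RPKM (the CPM above divided by the annotated exon length in kilobases), the order in WT lungs was Cldn5 (209.8 ± 12.6), Cdh5 (189 ± 31.0), Pecam1 (142 ± 14.2), Tie1 (93.3 ± 0.684), Egfl7 (80.3 ± 11.5), Tek (65.9 ± 6.04), Kdr (38.5 ± 6.04), Erg (25.2 ± 1.89), Flt1 (19.8 ± 3.34) and Emcn (10.7 ± 1.23, all SD, n = 3). In WT lungs the values of Cldn5 and Cdh5, of Tie1 and Egfl7, and of Egfl7 and Tek overlapped, and the other neighbours in this order did not. In TNF-Tg lungs Pecam1 came first at 96.4 ± 3.48 RPKM (SD, n = 3), although its values overlapped those of Cdh5 (84.2 ± 16.7), and the values of Cldn5 (72.1 ± 2.20) overlapped those of Cdh5. Emcn moved from rank 10 to rank 6, at 20.4 ± 2.68 RPKM (SD, n = 3), with values that overlapped those of Tek (17.2 ± 1.78). Flt1 came last in TNF-Tg lungs, at 6.41 ± 0.832 RPKM (SD, n = 3).

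Within each genotype the lungs also differed. By CPM, the TNF-Tg lung of replicate 3 was the highest TNF-Tg lung for 7 of the 10 genes, and the WT lung of replicate 3 was the lowest WT lung for 6 of them. The mean log2 CPM over the 10 genes was 7.15, 7.10 and 7.30 in TNF-Tg lungs and 8.24, 8.20 and 8.07 in WT lungs, a difference of -0.98 with no test, since the members were chosen with results known. The 10 genes held 0.165%, 0.175% and 0.227% of all counts in the TNF-Tg lungs and 0.406%, 0.379% and 0.361% in the WT lungs.

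Whether the genes moved by the same amount was read from the ratio of each gene to Cdh5 in the same lung, which does not depend on the scaling of the libraries. Emcn rose by 2.10 against Cdh5 on the log2 scale, with ratios of -1.53, -1.64 and -1.85 in TNF-Tg lungs and of -4.10, -3.72 and -3.50 in WT lungs. Pecam1 rose against Cdh5 by 0.62 and Erg by 0.60. Tek fell against it by 0.77, Flt1 by 0.45 and Kdr by 0.28. In these 6 genes the ratios of the genotypes did not overlap. By a two-sided exact permutation test, p was 0.1 for each, the smallest that 3 lungs against 3 allow. After adjustment over the 9 ratios it was 0.15. Cdh5 itself fell, so a gene of unchanged level would also rise against it. The share of all genes tested whose ratios to Cdh5 do not overlap was not computed. The ratios of Cldn5, Tie1 and Egfl7 overlapped between the genotypes, with exact p-values of 0.2, 1 and 0.3. For Tie1 the difference was 0.02, and against the mean of the other core genes in place of Cdh5 it was -0.19. For Tie1 and the other genes that fell, that mean included Emcn, the gene that rose. Against that mean the differences were -1.06 for Tek, -0.71 for Flt1, -0.62 for Cldn5, -0.52 for Kdr, 0.26 for Egfl7, 0.45 for Erg, 0.48 for Pecam1 and 2.12 for Emcn. With this reference Cldn5 also reached the smallest exact permutation p, 0.1, while Tie1 and Egfl7 had 0.3 and 0.2.

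**Figure D3:**
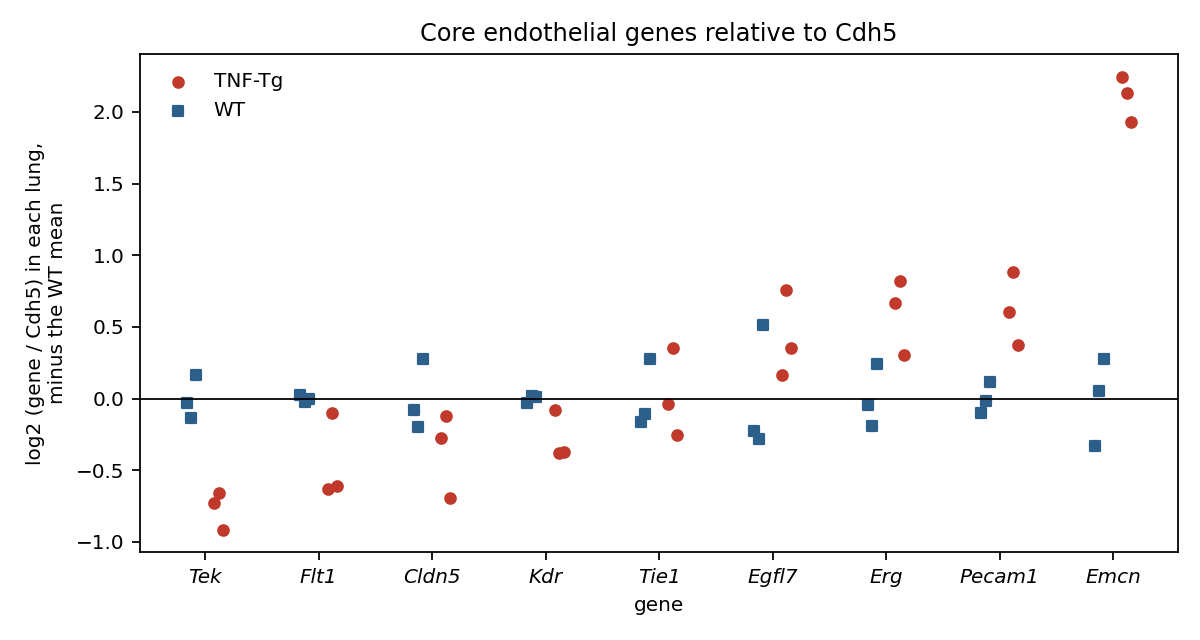
Log2 ratio of each core gene to Cdh5 in every lung, less the mean of the WT lungs, with red circles for TNF-Tg and blue squares for WT. The TNF-Tg points of Tek lie furthest below 0 and those of Emcn about 2 above it, while the points of Cldn5, Tie1 and Egfl7 overlap between the genotypes.

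The letters of the start regions of these genes were searched because Erg and its relatives bind ETS sites, whose core is GGAA. In the RefSeq promoter table (GRCm38.p6), 8 of the 10 genes had an entry, with 12 start sites in all, and the 250 bases before each start were searched on both strands for the 6-mers AGGAAG and CGGAAG, which cannot both lie at 1 place. Either 6-mer stood in 6 of these 12 windows, against 39.2% of the 32851 windows of all genes. The windows of Emcn, the gene that rose, of Flt1, which fell, and of Tek, which fell most and holds neither 6-mer, are shown so that they can be compared, 5′ to 3′ on the strand of the gene, with the 6-mers in capitals on whichever strand they lie.
Emcn (chr3:137340828-137341077, plus strand): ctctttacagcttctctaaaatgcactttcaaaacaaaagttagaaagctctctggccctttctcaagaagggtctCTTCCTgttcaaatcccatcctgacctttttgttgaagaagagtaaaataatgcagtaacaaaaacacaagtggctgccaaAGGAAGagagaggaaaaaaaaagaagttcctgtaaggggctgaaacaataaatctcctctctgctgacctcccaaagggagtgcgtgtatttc
Flt1 (chr5:147726012-147726261, minus strand): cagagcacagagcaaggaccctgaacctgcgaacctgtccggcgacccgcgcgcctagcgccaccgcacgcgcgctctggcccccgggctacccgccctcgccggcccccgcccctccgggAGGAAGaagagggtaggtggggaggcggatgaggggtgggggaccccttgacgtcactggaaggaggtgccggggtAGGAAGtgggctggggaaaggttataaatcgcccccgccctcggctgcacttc
Tek (chr4:94739039-94739288, plus strand): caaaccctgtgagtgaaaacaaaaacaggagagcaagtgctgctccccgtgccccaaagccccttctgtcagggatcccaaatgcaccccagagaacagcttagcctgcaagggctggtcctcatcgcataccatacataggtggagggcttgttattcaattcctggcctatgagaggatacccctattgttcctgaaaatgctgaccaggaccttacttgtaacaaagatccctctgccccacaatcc

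Emcn and Flt1 each held AGGAAG at 2 places. Of the 8 genes with an entry, 5 had a match before at least 1 start (Egfl7, Emcn, Tie1, Flt1 and Erg) and Tek, Kdr and Cldn5 had none, so genes that fell are among those with and without these letters.

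Other genes of endothelial pathways and vessel types were taken from lists of 82 genes outside the 10. Some of them are not particular to vessels: alveolar epithelium also expresses Vegfa and junction genes such as Ocln, Jup, Tjp1, F11r and Ctnna1, and all 7 alveolar type 1 markers were lower too (median log2 fold change -1.60). The part of the epithelium in these counts was not tested. Of these, 52 were called lower (23.4% of all genes tested were), 9 were called higher (24.0% of all were) and 21 were not called, and the median log2 fold change over the 82 was -0.77.

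Of 11 ligands, receptors and partners of the VEGF and angiopoietin pathways outside the 10 core genes, 6 were lower, 2 were higher and 3 were not called, against 23.4% lower and 24.0% higher among all genes, and their median log2 fold change was -0.64. Vegfa, the main ligand of KDR and FLT1, was at 188, 153 and 246 CPM in TNF-Tg lungs and at 595, 618 and 564 CPM in WT lungs (log2 fold change -1.60, SE 0.18, adjusted p = 0.000215). Pgf, placental growth factor and a ligand of FLT1, was named after its values were seen as the other gene of the list called higher beside Nrp2. It was at 9.82, 9.79 and 11.99 CPM in TNF-Tg lungs and at 4.58, 4.22 and 7.23 CPM in WT lungs (log2 fold change 0.98, SE 0.23, adjusted p = 0.00844), with no overlap. Angpt1, the ligand that activates TIE2, fell by 0.99 on the log2 scale (standard error 0.20, adjusted p = 0.0042). Angpt2, a ligand that can block TIE2, did not pass the test (log2 fold change 0.11, SE 0.16, adjusted p = 0.598), and its values overlapped. Ptprb, the endothelial phosphatase that acts on TIE2 and VE-cadherin, fell from 953, 769 and 622 CPM in WT lungs to 183, 177 and 200.1 CPM (log2 fold change -2.07, SE 0.17, adjusted p = 5.1e-05). Flt4, the receptor for VEGF-C and VEGF-D, fell by 1.40 on the log2 scale (adjusted p = 6.95e-05). Nrp2, a coreceptor for VEGFs and semaphorins that myeloid cells also carry, rose from 66.6, 67.0 and 51.9 CPM to 223, 195 and 237 CPM (log2 fold change 1.82, SE 0.14, adjusted p = 3.34e-05).

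At the junctions, 8 of 11 genes that partner VE-cadherin and claudins were lower and 1 was higher, against 23.4% and 24.0% of all genes, with a median log2 fold change of -0.68. Ocln, the tight junction protein occludin, fell by 1.54 on the log2 scale (adjusted p = 9.44e-05), and Jup, plakoglobin, fell by 1.35 (adjusted p = 0.00025). Epithelial cells use both genes as well. Jam3, a junctional adhesion molecule, rose by 0.97 on the log2 scale (adjusted p = 0.000877).

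Among 16 transcription factors of endothelial lineage, 7 were lower, 4 were higher and 5 were not called, and their median log2 fold change was -0.17. The share called higher was close to the 24.0% of all genes tested, and 23.4% of all genes were called lower. Gata2 fell from 158, 167 and 162 CPM in WT lungs to 36.4, 41.3 and 39.5 CPM (log2 fold change -2.05, SE 0.09, adjusted p = 4.99e-06). Epas1, the hypoxia-inducible factor HIF-2α that lung endothelium expresses strongly, fell by 1.74 on the log2 scale (adjusted p = 9.67e-05). Fli1, the closest relative of Erg, moved against it and rose from 15.4, 10.9 and 13.0 CPM to 29.5, 22.8 and 31.4 CPM (log2 fold change 1.09, SE 0.17, adjusted p = 0.0013). Leukocytes and megakaryocytes also express Fli1.

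Of 20 further genes common to blood vessel endothelium, 14 were lower and 1 was higher, where 23.4% and 24.0% of all genes were, with a median log2 fold change of -0.86. Ramp2, the partner of the adrenomedullin receptor, fell most, from 397, 365 and 395 CPM to 64.9, 75.5 and 66.2 CPM (log2 fold change -2.49, SE 0.11, adjusted p = 4.99e-06). Tmem100, a target of BMP signalling through ALK1, fell by 2.15 on the log2 scale (adjusted p = 8e-06). Ecscr, an endothelial surface protein, was the gene called higher (log2 fold change 0.38, adjusted p = 0.0155). Its call was lost under 5 of 16 alternatives, with an adjusted p of 0.0903 when libraries were scaled by total counts only, 0.0585 without TNF-Tg replicate 3, 0.0688 without WT replicate 1, 0.0642 without WT replicate 2 and 0.0860 without both lungs numbered 1. Its log2 fold change under these 5 was between 0.30 and 0.38. Nos3, endothelial nitric oxide synthase, did not pass the test (log2 fold change -0.32, SE 0.20, adjusted p = 0.224).

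Genes of separate vessel segments gave 15 lower and 1 higher of 20, beside 23.4% and 24.0% for all genes, with a median log2 fold change of -1.10. Vwf, von Willebrand factor of larger vessels and platelets, fell from 1349, 1253 and 1087 CPM in WT lungs to 140.2, 150.0 and 106 CPM (log2 fold change -3.22, SE 0.18, adjusted p = 9.31e-06). Ednrb, the endothelin B receptor of the wide capillary cells called aerocytes, fell by 2.30 (adjusted p = 1.29e-05). Ackr1, the chemokine receptor of venules, was the gene called higher: it had 143, 140 and 171 counts in TNF-Tg lungs and 13, 17 and 25 in WT lungs (log2 fold change 3.26, SE 0.27, adjusted p = 4.9e-05). Of 4 lymphatic genes, Lyve1, which macrophages also carry, and Mmrn1 were lower (log2 fold changes -3.06 and -0.78, adjusted p = 3.03e-05 and 0.0227), and Prox1 and Reln were not called, at 0.16 and -0.17. The call of Mmrn1 was lost under 4 of 16 alternatives, which left 1 of the 4 genes called. These alternatives left out TNF-Tg replicate 3, WT replicate 1, WT replicate 2 or both lungs numbered 1. The adjusted p-values by edgeR were 0.0558, 0.0581, 0.0526 and 0.0648, and the log2 fold changes were between -0.81 and -0.59.

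**Figure D4:**
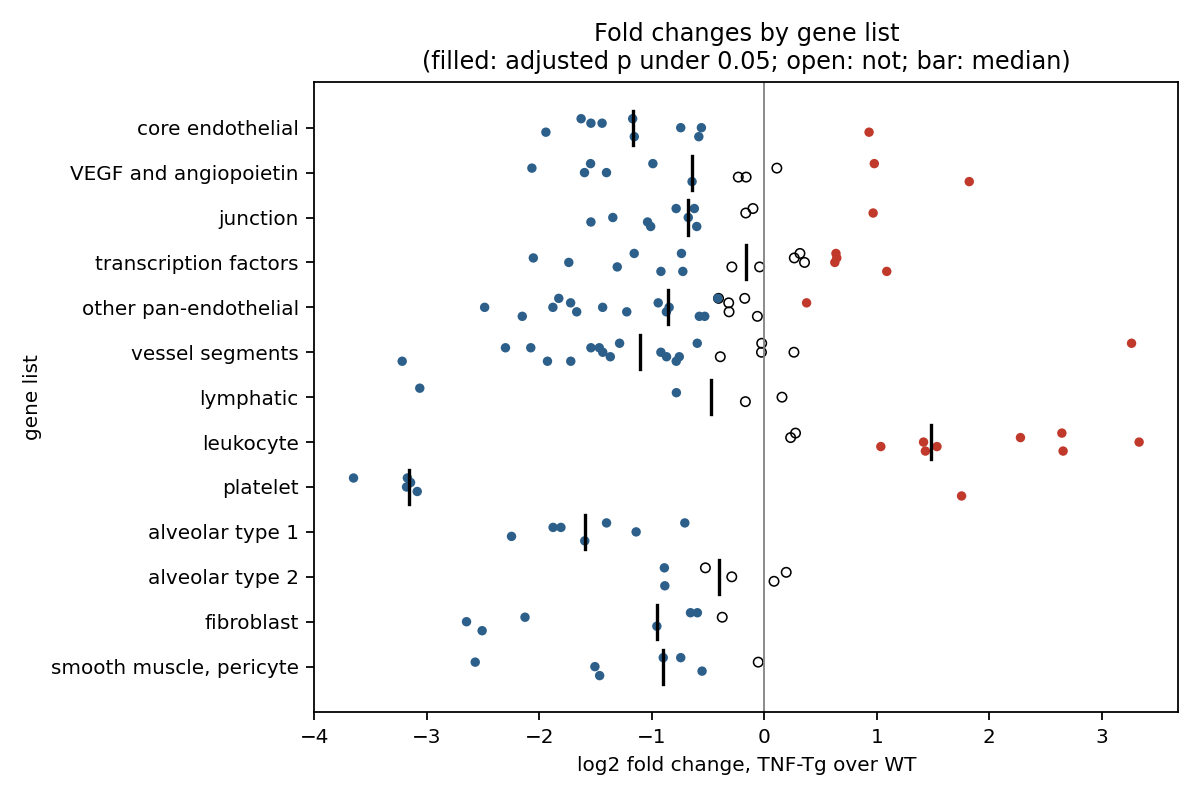
Log2 fold change (TNF-Tg over WT) of every gene of each list on the horizontal axis, filled where the adjusted p was under 0.05, blue for lower and red for higher, open where it was not, with a black bar at each list's median. The medians of the endothelial lists lie between -1.16 and -0.17, that of the alveolar type 1 list at -1.60 and that of the leukocyte list at 1.48.

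Transcripts that mark other cells of the lung also differed between the genotypes, in both directions. Of 10 leukocyte markers, 8 were higher and 0 were lower, with a median log2 fold change of 1.48, and their summed level was 8919 to 9761 CPM in TNF-Tg lungs and 3073 to 3130 CPM in WT lungs. Lyz2, singled out after its values were seen, made up most of these sums. It was at 6265 to 7270 CPM in TNF-Tg lungs and 2545 to 2606 CPM in WT lungs. Ptprc, the pan-leukocyte gene, rose by a log2 fold change of 1.43 (adjusted p = 8.14e-05). Of 6 platelet markers, 5 were lower and Pf4 was higher, and their sum was 76.3 to 96.5 CPM in TNF-Tg and 138 to 188 CPM in WT lungs. Without Pf4, which made up most of the TNF-Tg sum, the sums of the other 5 were 12.8 to 19.2 CPM and 120.2 to 167 CPM. Itga2b, the platelet integrin, fell by 3.09 on the log2 scale (adjusted p = 2.89e-05), while Pf4, which some macrophages also express, rose by a log2 fold change of 1.75 (adjusted p = 4.32e-05). All 7 alveolar type 1 markers were lower, and their sum was 1476 to 1741 CPM in TNF-Tg and 4506 to 4945 CPM in WT lungs. Of 6 alveolar type 2 markers 2 were lower and 4 were not called, with sums of 15035 to 19505 CPM and 21563 to 26245 CPM. Most of these sums was Sftpc, singled out after its values were seen, the surfactant protein C gene, which was not called (log2 fold change -0.52, SE 0.22, adjusted p = 0.0837) but passed under 4 of 16 alternatives, among them DESeq2 and limma-voom. The lower markers were 6 of 7 for fibroblasts, with sums of 1201 to 1296 CPM against 2769 to 3713 CPM, and 6 of 7 for smooth muscle and pericytes, with sums of 631 to 719 CPM against 1085 to 1255 CPM. The calls among these markers are read beside the shares of all genes given above. Ager of alveolar type 1 cells fell by 1.40 on the log2 scale (adjusted p = 0.000205), and Acta2 of smooth muscle fell by 0.90 (adjusted p = 0.00244). The part of these cells in the change of Pecam1, Erg, Flt1 and the other core genes was not tested. None of these leukocyte, platelet, alveolar, fibroblast, smooth muscle or pericyte markers was at 0 in any lung.

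By Pearson's correlation over the 6 lungs, the genes outside the core list whose log2 CPM was most like the mean of the 10 core genes were Thbs3 (0.9991), Notch4 (0.9991), Adcy8 (0.9988), Pcdh1 (0.9988) and Ctnna1 (0.9986), of 11292 genes compared. They are given as a description, since the 6 points share the difference between the genotypes. Notch4, a Notch receptor of endothelium, fell from 334, 309 and 261 CPM to 97.5, 94.3 and 122 CPM (log2 fold change -1.53, SE 0.14, adjusted p = 9.74e-05). Each core gene is itself part of the mean of the 10. Among the core genes, Tek was the most like that mean (0.998). Egfl7 was the least like it of those that fell (0.877), and Emcn ran against it (-0.923).

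The counts of the core genes are little shared with other genes. Of the 100-base windows of their transcripts, none occurred in a transcript of another gene for 9 of the 10 genes (0%), and 1.64% did for Egfl7. Egfl7 shares 264 exon bases, 7.37% of its exon length, with Gm20532 on its own strand, which had 0 counts in every lung. It also overlaps Agpat2 on the opposite strand over 64 exon bases, 1.79% of its exon length, and whether strand was used in counting is not given in the sources used here.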

How the data were processed

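Lungs of 3 TNF-Tg and 3 WT mice were compared. The authors trimmed the 100 bp single-end reads with Trimmomatic (version 0.36 in the submitters' processing notes), mapped them with STAR (version 2.5.2b) to GRCm38.p5 (mm10) and deposited raw counts per gene symbol, without normalization. The notes also name featureCounts. Its annotation and strand setting are not given in the sources used here.

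Each of the 6 columns was matched to a mouse by genotype and number. Counts were filtered (filterByExpr), TMM-normalized and tested by edgeR's quasi-likelihood method (edgeR version 4.0.16 in R version 4.3.3). Genotype was the model's only term, and p-values were adjusted by Benjamini and Hochberg's method over 19199 genes, with a threshold of 0.05. The study's own tool, DESeq2 (version 1.42.0), and limma-voom (limma version 3.58.1) were alternatives, with other scalings, filters, a block and left-out lungs. The SE is the size of the log2 fold change over the square root of F. Log2 CPM used a prior count of 2. Positions and exon lengths are from GENCODE M21 and start regions from RefSeq. The programs were tested on simulated counts. The 10 members and all gene lists were chosen with earlier results of these data known. Genes named from each vessel list are the largest rise and the 2 largest falls called, with Vegfa, Angpt1, Angpt2, Ptprb, Flt4, Fli1 and Nos3 whatever their values. Ptprc, Pf4, Itga2b, Ager, Acta2 and Krt13 stand for other cells, and the 5 genes most correlated with the core mean had a mean log2 CPM of at least 3.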

Additional observations from a re-analysis of the deposited data

How the results depend on the processing

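The 9 genes called lower and Emcn called higher kept those calls when tested by DESeq2 or limma-voom, under 3 other scalings (size factors of DESeq2, upper quartile, totals alone), without the filter, with a minimum of 10 counts per lung, with a robust dispersion, with the replicate block and with each lung left out in turn. Leaving out both lungs numbered 1, chosen after seeing the data, left 8 lower. The scalings moved the median of all genes by less than 0.1 on the log2 scale. A minimum absolute log2 fold change of 1 left 6 core genes lower and 0 higher (of the 10 called in the edgeR test without it), 4320 genes called in all, 5 VEGF and angiopoietin genes, 4 junction genes, 5 transcription factors, 8 further pan-endothelial genes, 11 vessel segment genes (of 16) and 1 lymphatic gene. The lymphatic count was between 1 and 2 with each lung left out and 1 without both lungs numbered 1. Of the further pan-endothelial genes, 15 were called in the edgeR test on all lungs. With each lung left out 12 to 16 were called, and 11 without both lungs numbered 1. The log2 fold change of Angpt2 was between -0.054 and 0.27 with each lung left out, with its sign turned without TNF-Tg replicate 3, and the difference of Tie1 against the other core genes was -0.19. In neither case was the cause tested. With each lung left out, 7347 to 9164 genes were called. Same-numbered mice are different animals, and their deviations from the group means did not go together (correlation across genes -0.24 to -0.0043 over the 3 pairs). With the replicate block 7686 genes were called in place of 9096, and 9 core genes were lower. With 3 lungs a group, the edgeR p-values compare the difference between genotypes with a spread between mice that is estimated partly from other genes.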
